A study of Mus musculus with 10 samples.

Results

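Oxidative phosphorylation is carried out in the inner mitochondrial membrane by 5 protein complexes, and most of their subunits are encoded by nuclear genes. Complexes I to IV pass electrons from NADH and succinate to oxygen, and complexes I, III and IV pump protons. Complex V, the ATP synthase, uses the returning protons to make ATP. A few core subunits come from mitochondrial DNA, so the nuclear genes have to be expressed in balance with it. In the intestinal crypt, Lgr5-positive stem cells are known for active mitochondria, and neighbouring Paneth cells are known for a more glycolytic metabolism.

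The subunit genes were taken by symbol: names beginning Ndufa, Ndufb, Ndufc, Ndufs or Ndufv for complex I, Sdha to Sdhd for complex II, Uqcr and Cyc1 for complex III, Cox4i, Cox5, Cox6, Cox7 and Cox8 for complex IV, and Atp5 for complex V. Assembly factors named Ndufaf and pseudogenes were left out, among them Uqcrh-ps1. Of 22180 genes with a probe set of their own, 80 were members. Complex I had 34 of them, complex II 4, complex III 8, complex IV 17 and complex V 17. A further 9 protein-coding genes of the same name pattern, including Cox6c, Ndufb4, Ndufs6 and Uqcr10, had no probe set with a single symbol and were not analysed here.

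Expression had been measured as log2 intensity on 10 mouse arrays, 4 from Flattop-expressing crypt cells and 6 from Lgr5-high stem cells, all sorted from mice 3 to 6 months old. The Flattop cells came from FltpT2AiCre mice crossed with Gt(ROSA)26mTmG, in which Cre made from the Flattop gene switches a membrane colour reporter, on a mixed C57BL/6J, CD1 and 129/SvJ background. For the Lgr5-high group the strain was C57BL/6J and the allele Lgr5-EGFP-IRES-creERT2, so group, alleles and strain cannot be told apart. The question was how crypt cells expressing Flattop differ from Lgr5-high stem cells. Whether the arrays of a group stem from different mice is not stated. The p-values therefore rest on array-to-array spread alone, part of which may be technical.

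Cell type markers differed between the groups far more than the subunit genes did. Over all genes, 200 were higher and 3 lower in Flattop at an adjusted p of 0.05 (limma with Benjamini-Hochberg adjustment). Of 11 T cell and intraepithelial lymphocyte markers 10 rose, and the list mean lay between 8.31 and 10.54 on the Flattop arrays and between 4.41 and 4.85 on the Lgr5-high arrays, where 6 of the 11 had means under the median of all values (4.70). Of 9 Paneth markers 6 rose (list means 11.01 to 12.24 against 7.94 to 9.19), as did 6 of 11 enterocyte, 5 of 8 goblet and 5 of 10 enteroendocrine markers. Of 10 Lgr5 stem cell markers 0 passed and of 10 S phase genes 1 fell, with medians of -0.71 and -0.73, and 6 of 10 in each list were lower with an unadjusted p under 0.05 (3.8% of all genes). The stem cell and S phase medians were -0.28 and -0.37 within title numbers 1 to 8. Within numbers 38 to 46 they were -1.05 and -1.03. Of 11 dissociation response genes 0 passed, with a median of -0.52 within title numbers 1 to 8 and 1.13 within numbers 38 to 46. Lgr5 itself was at -1.10 (SE 0.51, limma adjusted p = 0.533) and Cfap126, which encodes Flattop, at 0.43 (SE 0.31, limma adjusted p = 0.678), so neither gene that names a group separated the groups. The part of these markers in the results below was not tested. In bulk samples such as these, fewer cells of a type and less RNA per cell cannot be told apart.

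None of the 80 subunit genes was called higher or lower in the Flattop arrays. The background in the same limma fit was 0.915% of all genes called, 0.902% higher and 0.0135% lower. With an unadjusted p under 0.05, 1 member passed, Cox7a1, on the higher side, against 9.78% of all genes (5.98% higher and 3.8% lower). The groups overlapped for all 80 members, whereas 2.98% of all genes had groups that did not overlap (2.01% higher and 0.974% lower). The median difference of the members was -0.06 on the log2 scale, beside -0.06 over all genes. Of the 80 differences 52 were negative (65%), as were 61.55% of those of all genes, and 76 (95%) lay within 0.5 of 0 in either direction, as did 86.7% of all genes.

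A missed threshold does not show that levels were alike, so the 95% confidence interval of each difference was set against a 2-fold change, which is 1 on the log2 scale. For 66 of the 80 members (82.5%) the interval, unadjusted for the number of genes, lay wholly within a 2-fold change in either direction. The share over all genes was 77.3%. The 66 include Ndufa4l2, Cox7b2, Cox8b and Cox8c, whose means were under the 40th percentile of all genes and whose intervals bound little. Without such dim genes the count was 62 of 76 (81.6%), beside 65.2% of all genes that were not dim. That limit (4.60) was under the median of all values (4.70). The 62 still include members not far above it, such as Atp5g1 (mean 5.24) and Cox4i2 (5.32). Without detection calls, how much such intervals bound is uncertain. For 14 members the interval reached past a 2-fold change, so a change of that size was not bounded for them. They were Ndufa1, Ndufa2, Ndufa3, Ndufa11, Ndufb11, Ndufs5 and Ndufs8 in complex I, Sdhc and Sdhd in complex II, Uqcrh in complex III, Cox6b2 and Cox7a1 in complex IV, and Atp5g2 and Atp5h in complex V. The median standard error was 0.22 for members and 0.19 for all genes.

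**Figure D1:**
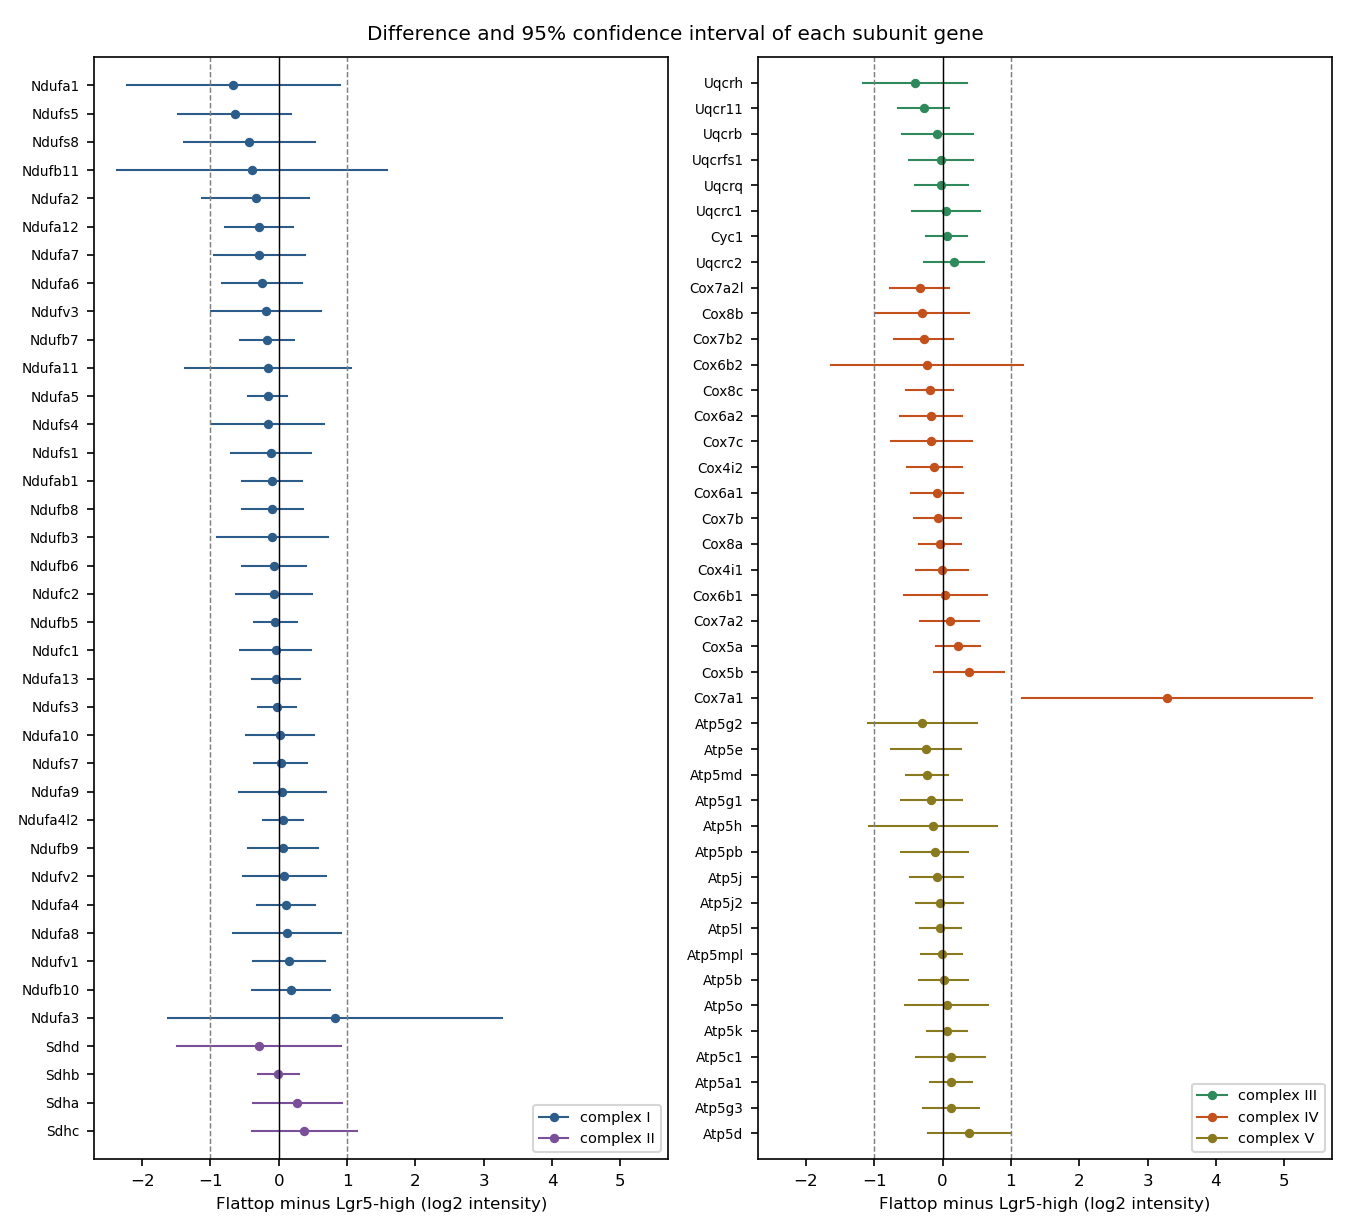
Difference of each of the 80 subunit genes, Flattop (4 arrays) minus Lgr5-high (6 arrays), on the log2 scale; points are the differences, lines their 95% confidence intervals from limma, and dashed lines mark a 2-fold change. The interval of Cox7a1 (1.16 to 5.41) is the one that excludes 0, and 66 of the 80 intervals stay between the dashed lines.

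Complex I, the NADH dehydrogenase, had a median difference of -0.08 over 34 genes, with 11 positive and 23 negative. Its core subunits hold the flavin and the iron-sulfur clusters that carry electrons. The 6 core genes measured (Ndufs1, Ndufs3, Ndufs7, Ndufs8, Ndufv1 and Ndufv2) lay between -0.43 and 0.15. The 26 accessory subunits, which surround that core and stabilise it, had a median of -0.10 and lay between -0.66 and 0.82. Ndufs3, which sits in the matrix arm, was among the most closely bounded genes, at -0.03 with an interval of -0.31 to 0.26.

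Both ends of the complex I range rested on 1 array each. Ndufa1 (Entrez gene 54405), a small accessory subunit of the membrane arm, read 11.05, 10.79, 6.98 and 10.81 on Flattop arrays 1 to 4. On the Lgr5-high arrays its lowest, median and highest values were 9.97, 10.63 and 11.14. Flattop array 3 was far below every other array, and the remaining Flattop arrays lay within the Lgr5-high range. The difference was -0.66 (SE 0.70, limma adjusted p = 0.774) over all arrays and 0.31 without Flattop array 3. Ndufa3, another membrane arm subunit, read 11.18, 10.45, 10.27 and 10.62 on the Flattop arrays, against 4.76, 10.82 and 11.00 as the lowest, median and highest Lgr5-high values. Here 1 Lgr5-high array, replicate 2, was far below all others and the groups otherwise overlapped. Its difference was 0.82 (SE 1.11, limma adjusted p = 0.825), and -0.19 without that array.

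Ndufs5, an accessory subunit on the intermembrane space side, had the smallest p of complex I. Flattop arrays 1 to 4 read 4.89, 4.76, 5.47 and 5.01, and the Lgr5-high arrays had 5.02, 5.43 and 7.19 as lowest, median and highest values. Flattop arrays 1, 2 and 4 lay slightly under the lowest Lgr5-high value and array 3 lay inside the Lgr5-high range, so the groups overlapped. The difference was -0.65 (SE 0.37, limma adjusted p = 0.620), and Lgr5-high replicate 1 was the high value: without it the difference was -0.34. Ndufa4, named for complex I but since assigned to complex IV, read 12.20, 11.83, 11.45 and 11.93 in Flattop and 11.34 to 12.19 in Lgr5-high with a median of 11.80. The groups covered nearly the same range, at 0.11 (SE 0.19, limma adjusted p = 0.870). Its isoform Ndufa4l2, which is induced by low oxygen in other cells, was dim at 4.31 ± 0.25 (SD, n = 4) and 4.25 ± 0.10 (SD, n = 6).

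Complex II, succinate dehydrogenase, also works in the citric acid cycle. Its 4 genes had a median difference of 0.13. Sdhb, the iron-sulfur subunit, was the most closely bounded, at -0.004 with an interval of -0.30 to 0.29. The flavoprotein Sdha read 9.45, 10.11, 9.64 and 9.78 on Flattop arrays 1 to 4, and its lowest, median and highest Lgr5-high values were 8.56, 9.57 and 10.17. All 4 Flattop arrays fell inside the Lgr5-high range, with a difference of 0.27 (SE 0.29, limma adjusted p = 0.779). The membrane anchors Sdhc and Sdhd lay at the ends of the range. Sdhc read 9.31, 8.98, 8.68 and 9.65 in Flattop and 7.44, 9.09 and 9.25 as lowest, median and highest in Lgr5-high, a difference of 0.38 (SE 0.35, limma adjusted p = 0.741). The low Lgr5-high value came from replicate 4, without which the difference was 0.11. Sdhd read 8.91, 7.97, 6.21 and 8.78 in Flattop, against 7.36, 8.31 and 9.31 in Lgr5-high. Its difference was -0.29 (SE 0.54, limma adjusted p = 0.877) and turned to 0.29 without the low Flattop array 3.

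Complex III, the cytochrome bc1 complex, passes electrons from ubiquinol to cytochrome c. Its 8 genes had a median difference of -0.02. The core and redox subunits (Uqcrc1, Uqcrc2, the Rieske protein Uqcrfs1 and the cytochrome Cyc1) lay between -0.03 and 0.17, and the small subunits (Uqcrb, Uqcrh, Uqcrq and Uqcr11) between -0.40 and -0.02. Uqcr11 had the smallest p. It read 8.62, 8.04, 8.28 and 8.32 on Flattop arrays 1 to 4, with 8.21, 8.61 and 8.96 as lowest, median and highest in Lgr5-high, a difference of -0.28 (SE 0.17, limma adjusted p = 0.633). A single Flattop array lay under the Lgr5-high range and the others inside it. Uqcrc2, a core protein, read 10.13, 10.07, 9.65 and 9.61 in Flattop and 9.24 to 10.15 in Lgr5-high with a median of 9.74. All Flattop values lay inside that range, at 0.17 (SE 0.20, limma adjusted p = 0.790). The hinge protein Uqcrh read 10.72, 10.27, 8.66 and 10.45 in Flattop, with 10.13, 10.40 and 10.72 in Lgr5-high, and Flattop array 3 alone lay outside. Its difference of -0.40 (SE 0.34, limma adjusted p = 0.719) became 0.06 without that array. Uqcrb, which helps bind ubiquinone, read 11.08, 10.61, 9.63 and 10.63 in Flattop, against 10.40, 10.53 and 10.80 in Lgr5-high, at -0.08 (SE 0.24, limma adjusted p = 0.925).

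Complex V, the ATP synthase, had a median difference of -0.03 over 17 genes. The F1 head that makes ATP (Atp5a1, Atp5b, Atp5c1, Atp5d and Atp5e) lay between -0.24 and 0.39. The peripheral stalk, which holds that head still (Atp5pb, Atp5h, Atp5j and Atp5o), lay between -0.14 and 0.06. The small membrane subunits (Atp5j2, Atp5k, Atp5l, Atp5md and Atp5mpl) lay between -0.22 and 0.06, with all 5 intervals within a 2-fold change.

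Atp5d, the delta subunit of the head, had the largest positive difference of the complex. It read 11.60, 11.11, 11.28 and 11.19 on Flattop arrays 1 to 4, and 10.18, 11.09 and 11.52 were the lowest, median and highest Lgr5-high values. The Lgr5-high arrays spread more widely and enclosed 3 of the 4 Flattop values, at 0.39 (SE 0.27, limma adjusted p = 0.674). Atp5md, a small subunit known for its part in ATP synthase dimers, read 12.18, 11.82, 11.84 and 12.12 in Flattop and 12.04 to 12.57 in Lgr5-high with a median of 12.18. The Flattop arrays lay at the low end, 2 of them under the Lgr5-high range. The difference was -0.22 (SE 0.14, limma adjusted p = 0.639). Atp5l, the g subunit, read 12.52, 12.36, 12.13 and 12.59 in Flattop against 12.17 to 12.62 in Lgr5-high (median 12.46), at -0.03 (SE 0.13, limma adjusted p = 0.952). The ring of c subunits, which turns as protons pass, is encoded by Atp5g1, Atp5g2 and Atp5g3, whose mature proteins are the same. They were at -0.17, -0.30 and 0.12. Atp5g2 read 11.22, 10.80, 9.33 and 10.82 in Flattop, and 9.98, 10.92 and 11.37 in Lgr5-high, with the low value again on Flattop array 3. Its difference of -0.30 (SE 0.36, limma adjusted p = 0.802) was 0.11 without that array.

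Complex IV, cytochrome c oxidase, reduces oxygen, and several of its nuclear subunits come as a general isoform and one restricted to certain tissues. The median difference over 17 genes was -0.08. All 9 general isoforms (Cox4i1, Cox5a, Cox5b, Cox6a1, Cox6b1, Cox7a2, Cox7b, Cox7c and Cox8a) had intervals within a 2-fold change and differences between -0.16 and 0.39. Cox6a1 read 12.46, 12.15, 11.67 and 12.28 on Flattop arrays 1 to 4, with 11.86, 12.30 and 12.40 in Lgr5-high, at -0.08 (SE 0.17, limma adjusted p = 0.895). Flattop array 3 was the lowest of the 10 and the groups otherwise overlapped. Cox7a2l, which joins complexes III and IV into supercomplexes, read 8.27, 8.07, 7.69 and 7.63 in Flattop and 7.91 to 8.69 in Lgr5-high with a median of 8.18. A pair of Flattop arrays lay under the Lgr5-high range, at -0.34 (SE 0.20, limma adjusted p = 0.622).

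Cox7a1 (Entrez gene 12865), the isoform of subunit VIIa best known from heart and skeletal muscle, stood apart from the other members. It read 9.98, 8.65, 4.69 and 9.60 on Flattop arrays 1 to 4, and the Lgr5-high arrays read 6.98, 3.88, 4.99, 4.53, 4.26 and 5.01 in replicates 1 to 6. Flattop arrays 1, 2 and 4 lay above every Lgr5-high array, and Flattop array 3 lay among the Lgr5-high arrays. The means were 8.23 ± 2.43 (SD, n = 4) and 4.94 ± 1.09 (SD, n = 6), and the Lgr5-high mean was close to the median of all values (4.70), so the size of the difference is uncertain without detection calls. The difference was 3.29 (SE 0.96, 95% interval 1.16 to 5.41) and missed the threshold (limma adjusted p = 0.228).

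Without Flattop array 3 the Cox7a1 difference was 4.47 (SE 0.60) and passed the limma test (adjusted p = 0.00586), as did 0.951% of all genes toward higher and 0.018% toward lower values. It was the sole member called in that fit. Array 3 held the lowest Flattop value of Cox7a1, so leaving it out had to raise the difference. The call in that fit is therefore not separate support. Over all the alternative settings run, the Cox7a1 difference lay between 2.54 and 4.47 and its limma adjusted p between 0.00586 and 0.726. Within arrays with title numbers 1 to 8 it was 4.03 and within numbers 38 to 46 it was 2.54, with limma adjusted p of 0.295 and 0.726. The lymphocyte list mean was 8.31, 8.81, 10.54 and 9.93 on Flattop arrays 1 to 4, highest on array 3. The Paneth list mean was 12.24, 11.72, 11.01 and 11.68, the enterocyte mean 10.13, 10.33, 9.75 and 10.94 and the enteroendocrine mean 8.88, 8.28, 7.77 and 8.16, all lowest on array 3. Low values there were common: 76% of genes with a mean of at least 8 were below the mean of the other Flattop arrays. The goblet mean was 11.98, 11.90, 11.63 and 11.49, lowest on array 4. The part of these cell types in the Cox7a1 difference was not tested.

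The other tissue-restricted isoforms of complex IV had small negative differences. The remaining muscle isoforms were Cox6a2, with a Flattop mean of 5.75 ± 0.42 (SD, n = 4) against 5.92 ± 0.27 (SD, n = 6), and Cox8b, at 3.79 ± 0.24 and 4.09 ± 0.64. Their differences were -0.17 (95% interval -0.63 to 0.29) and -0.30 (-0.98 to 0.38). Cox4i2, known from lung, was at -0.12 (-0.53 to 0.28). The isoforms known from testis, Cox6b2, Cox7b2 and Cox8c, were at -0.23, -0.28 and -0.19, with an interval reaching past a 2-fold change for Cox6b2 (-1.64 to 1.17). Cox7b2, Cox8b and Cox8c had means under the 40th percentile of all genes (4.60), so their values bound little. The general partner Cox7a2 was at 11.08 ± 0.43 (SD, n = 4) and 10.97 ± 0.21 (SD, n = 6), a difference of 0.10 with an interval of -0.33 to 0.54.

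**Figure D2:**
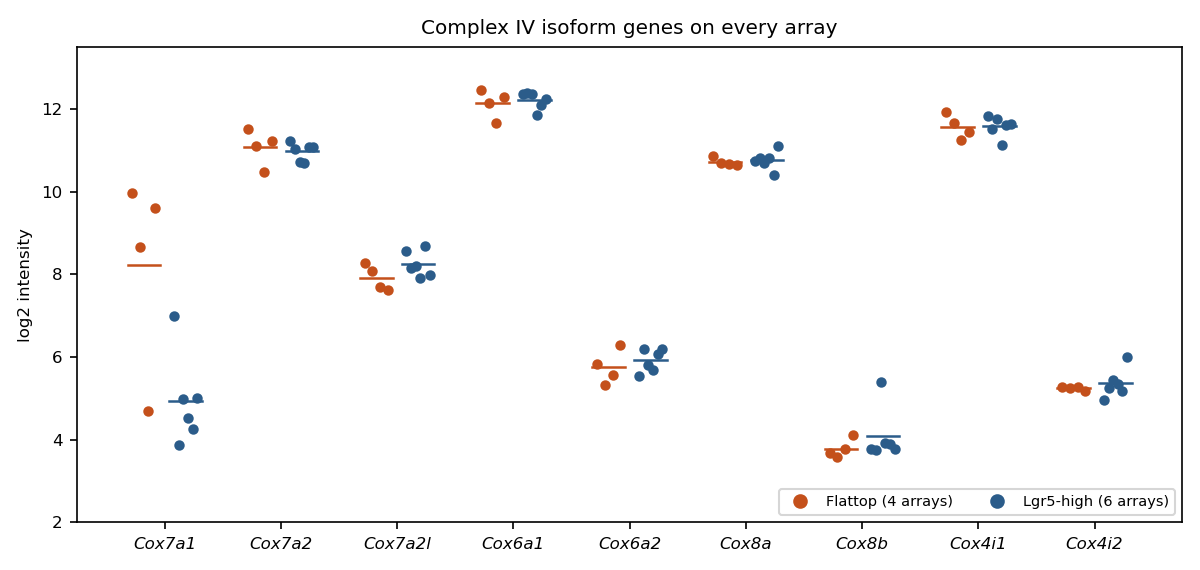
Log2 intensity of complex IV isoform genes on every array; points are arrays (4 Flattop, 6 Lgr5-high) and bars are group means. Cox7a1 is at 8.65 to 9.98 on 3 Flattop arrays and at 4.69, within the Lgr5-high range, on the remaining one. All the genes shown overlap between the groups.

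The upstream sequences of Cox7a1 and its general partner are shown because Cox7a1 had the largest difference of all members and Cox7a2 is its general counterpart. Each run is the 250 bases before an annotated start in RefSeq, build GRCm38.p6. For Cox7a2 that start lies inside the annotated gene, which spans chr9:79755241-79771422. The sequence before the outer end of the gene is not shown. Neither holds a match to the motifs of NRF1, ETS factors or YY1 described further on, so no letters are in capitals. Cox7a1 is read from the plus strand at chr7:30183921-30184170 and Cox7a2 from the minus strand at chr9:79759854-79760103.
Cox7a1: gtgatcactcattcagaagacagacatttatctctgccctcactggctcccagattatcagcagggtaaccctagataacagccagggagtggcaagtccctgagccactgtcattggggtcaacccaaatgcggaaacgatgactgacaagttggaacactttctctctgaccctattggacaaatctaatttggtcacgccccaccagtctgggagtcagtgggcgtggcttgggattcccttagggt
Cox7a2: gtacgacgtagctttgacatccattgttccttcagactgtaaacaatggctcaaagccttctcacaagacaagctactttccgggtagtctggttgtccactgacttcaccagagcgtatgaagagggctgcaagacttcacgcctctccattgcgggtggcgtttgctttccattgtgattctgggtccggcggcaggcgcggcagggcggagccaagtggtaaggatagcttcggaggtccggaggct

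Across arrays, the members moved more from array to array than between groups. The mean over the 80 members was 9.24, 8.88, 8.36 and 8.94 on Flattop arrays 1 to 4, and its lowest, median and highest Lgr5-high values were 8.70, 8.85 and 9.17. Flattop array 1 was above and Flattop array 3 below every Lgr5-high array, and arrays 2 and 4 lay inside their range. The group means were 8.86 ± 0.37 (SD, n = 4) and 8.88 ± 0.17 (SD, n = 6). Complex I ran from 8.09 on Flattop array 3 to 9.15 on Lgr5-high replicate 1, and complex V from 9.26 on Flattop array 3 to 9.96 on Flattop array 1. Flattop array 3 was the lowest of the 10 for complexes I, III, IV and V. For complex II the lowest was Lgr5-high replicate 4 (8.01), next to Flattop array 3 (8.12).

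**Figure D3:**
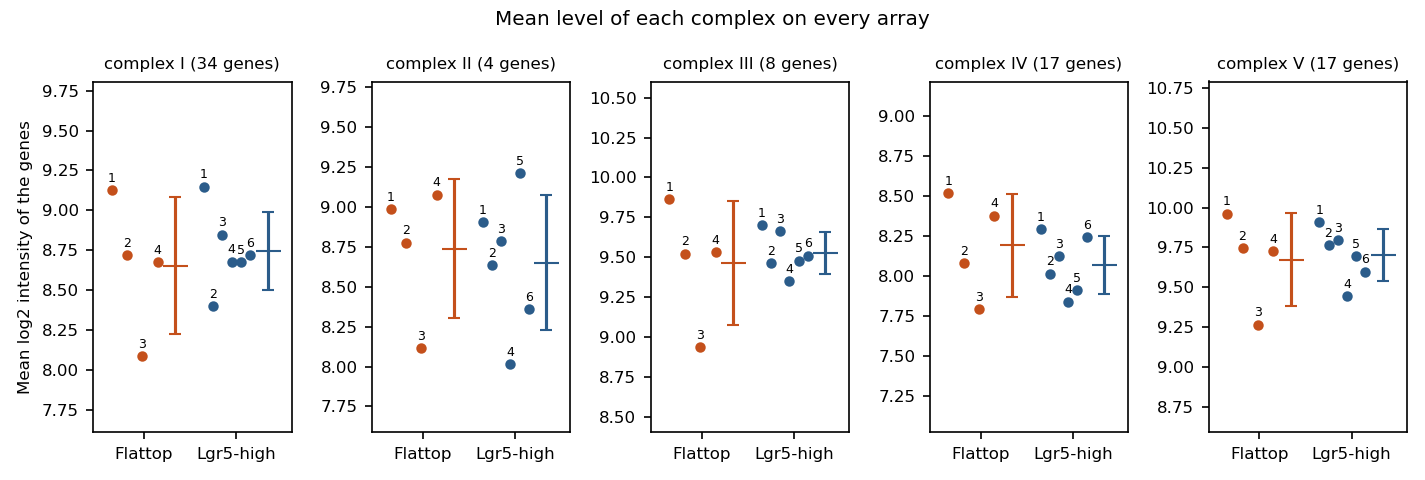
Mean log2 intensity of the genes of each complex on every array, with replicate numbers beside the points and the group mean ± SD to the right of each group (4 Flattop, 6 Lgr5-high arrays). Flattop array 3 is the lowest point for complexes I, III, IV and V, and the group means differ by less than 1 SD.

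Flattop array 3 gave the lowest value of the 10 arrays for 31 of the 80 members (38.8%), against 10.5% of all genes. Among the 1691 genes with a mean of at least 8, a limit chosen after the values were seen, it was the lowest for 30.5%. It lay below the mean of the other Flattop arrays for 72 members (90%), which compares with 44.1% of all genes and 76% of those 1691 genes. The gap was uneven, and 18 members (22.5%) were at least 1 lower there, as were 22.4% of the brighter genes. The gap was -4.72 for Cox7a1, -3.90 for Ndufa1, -2.62 for Ndufb11, -2.34 for Sdhd and -2.23 for Ndufa11. Cox5b and Ndufs5 were instead higher on that array than the mean of the other Flattop arrays. Flattop array 1 gave the highest value for 28 members (35%), against 8.63% of all genes and 18% of the brighter ones.

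**Figure D4:**
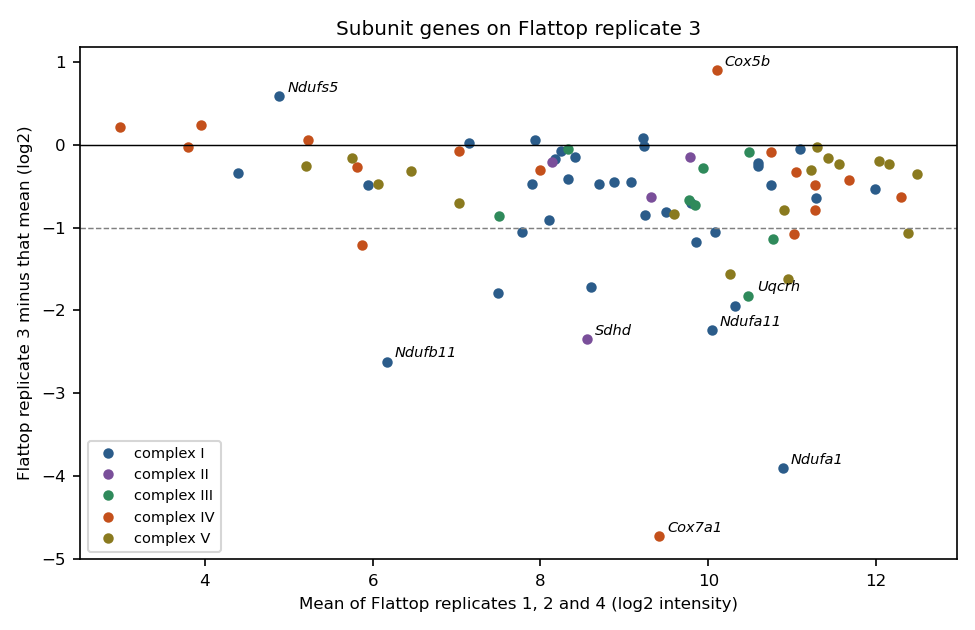
Flattop array 3 minus the mean of Flattop arrays 1, 2 and 4 for each of the 80 members, plotted against that mean (log2 intensity), coloured by complex; the dashed line marks 1 lower. Most points lie below 0 (72 of 80), with Cox7a1 and Ndufa1 lowest at -4.72 and -3.90.

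The median of the members lay close to 0, and its sign changed with several choices. Without Flattop array 3 the median difference of the members was 0.09 and 57 of the 80 were positive. With all arrays it was -0.06 and 28 were positive. Over all genes the median was -0.08 without that array and -0.06 with all arrays. The share of all genes that were positive without that array is not given here. Per complex, the median without Flattop array 3 was 0.07 for complex I, 0.30 for complex II, 0.18 for complex III, 0.05 for complex IV and 0.10 for complex V. The median of the members was also positive without Lgr5-high replicate 1 (0.0053), with array weights (0.0165) and with arrays centred on their medians (0.00083). Over all genes it was -0.0749, -0.0629 and -0.0037 in those fits. By title number range the median of the members was 0.06 within numbers 1 to 8 (Flattop arrays 1 and 2). It was -0.10 within numbers 38 to 46 (Flattop arrays 3 and 4). Over all genes the median was -0.09 in the first range and -0.02 in the second. The labels do not say what the title numbers mark. The interaction of group and range passed limma for 2 of 22180 genes (0.00902%) and for 0 members. At an unadjusted p under 0.05 it passed for 1 member, Atp5h (1 of 80, or 1.25%, against 7.39% of all genes), which was at 0.45 in the first range and -0.72 in the second.

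A second probe set was available for 9 members, and 8 of the 9 gave the same sign. Atp5g2 was at -0.30 and -0.32 in its 2 probe sets, and Ndufa12 at -0.29 and -0.24. Atp5h was at -0.14 in the brighter and 0.62 in the dimmer one, and the latter did not pass either (limma adjusted p = 0.523). Many subunit genes have processed pseudogenes with near-identical sequence, so a probe set may pick up more than 1 of the copies.

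Over 7 related lists with 180 genes in all, 0 passed limma's adjusted threshold and 14 had an unadjusted p under 0.05, beside 0.915% and 9.78% of all genes. The 44 assembly factors, which build the complexes, had a median difference of -0.01. Among them Ndufaf7, a methyltransferase that modifies complex I during its assembly, came closest to the threshold at -1.07 (SE 0.23, limma adjusted p = 0.0729). Sdhaf2, which adds the flavin to Sdha, was at 0.69 and Cox18, an insertase of complex IV, at 0.54. The 71 mitochondrial ribosome genes had a median of -0.11, and 1 positive and 5 negative differences had an unadjusted p under 0.05. Mrps17 was at 1.08 and Mrps24 at -0.39.

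The 17 genes of pyruvate entry and the citric acid cycle had the largest list median, 0.22. Citrate synthase (Cs) was at 0.62 (SE 0.17, limma adjusted p = 0.193), the pyruvate dehydrogenase subunit Pdha1 at -0.48 and malate dehydrogenase Mdh2 at 0.36. Among 17 genes of mitochondrial biogenesis and mitochondrial DNA expression the median was -0.09, and the coactivator Ppargc1a was at 0.91 (SE 0.36, limma adjusted p = 0.437), with the nuclear receptor Esrra at 0.37 and the RNA-binding protein Lrpprc at -0.59. The median was -0.04 for 16 genes of cytochrome c, ubiquinone synthesis and other electron entry, with the ubiquinone synthesis genes Coq4 at 0.69, Coq7 at -0.85 and Coq6 at -0.24. It was -0.11 for 9 carriers and porins, where the porins Vdac1 and Vdac3 were at -0.83 and 1.03 and the ADP/ATP carrier Slc25a5 at -0.56. The 6 lactate dehydrogenases and pyruvate dehydrogenase kinases had a median of 0.11, with Pdk4 at 0.21 and Ldha at 0.10. Not one of these named genes passed limma's adjusted threshold.

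Promoter sequence is a feature that many members shared and that the choice of members did not use. Nuclear respiratory factor 1 (NRF1), ETS factors such as GABPA, and YY1 are known regulators of respiratory chain genes. RefSeq windows of 250 bases before to 50 after an annotated start were found for 65 of the 80 members, 70 windows in all. The NRF1 motif was searched as GCGCA, any 1 base and GCGC, the ETS motif as CCGGAAG and the YY1 motif as AAGATGGCG, each on both strands. The NRF1 motif was in 16 of the 70 windows (22.9%) and in 6.38% of the 21262 windows of protein-coding genes. The ETS motif was in 17 (24.3%, against 11.6%), the YY1 motif in 6 (8.57%, against 1.83%), and at least 1 of them in 34 (48.6%, against 17.9%). A match is a description of letters and not a measured binding site.

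Windows of 40 bases around the symmetric NRF1 match are shown for 4 members, 1 from each of complexes I and IV and 2 from complex V, with the match in capitals and build GRCm38.p6. Ndufa11 is read from the plus strand at chr17:56717687-56717726, and the rest from the minus strand: Cox6a1 at chr5:115349096-115349135, Atp5g2 at chr15:102671065-102671104 and Atp5k at chr5:108434425-108434464. The matches end 32 to 152 bases before the annotated start.
Ndufa11: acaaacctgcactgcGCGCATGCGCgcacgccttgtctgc
Cox6a1: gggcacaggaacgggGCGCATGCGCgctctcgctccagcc
Atp5g2: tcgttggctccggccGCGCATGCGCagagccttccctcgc
Atp5k: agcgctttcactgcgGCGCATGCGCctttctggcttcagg
Flattop array 3 minus the mean of the other Flattop arrays was -2.23 for Ndufa11, -1.62 for Atp5g2, -0.63 for Cox6a1 and -0.24 for Atp5k, so genes with this match differed in how low they were on that array.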

How the data were processed

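Cells were sorted by FACS and their RNA amplified and hybridised to Affymetrix mouse gene arrays, per the labels' protocols. The deposited table holds log2 intensities that the authors made with RMA in oligo 1.38.0, per the submitters' processing notes, while a genome build is not given in the sources used here. The table has 41345 probe sets. The platform annotation gives a single symbol for 23521 and more than 1 for 1814, and it does not list 16010. The single-symbol probe set with the highest mean stood for each of 22180 genes. Limma 3.58.1 (lmFit and eBayes, R 4.3.3) compared 4 Flattop with 6 Lgr5-high arrays, with no covariates. Tests were two-sided, and p-values were adjusted by Benjamini-Hochberg across all genes with a threshold of 0.05. The procedure was tested on simulated data. Array data give no counts, so the number of arrays limits the precision.

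Values in every Flattop array are given, per complex, for the members with the smallest p, the largest positive and negative difference and the highest mean. For the Lgr5-high arrays their lowest, median and highest values are given, and every value for Cox7a1. Members, gene lists and motifs were chosen with earlier results of these data known. Promoter sequences came from RefSeq (GRCm38.p6). Alternatives covered scaling, array weights, title number ranges, probe sets, thresholds, the replicate block and each array left out.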

Additional observations from a re-analysis of the deposited data

Results flagged for a closer look

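A single array lay far from the rest of its group, by Dixon's criterion at the 95% level, in 15 of 172 groups tested, which were both groups of each of the 80 members and of 6 means over members. Chance gives about 1 in 20. In the Flattop group, array 3 was lowest for Ndufa1 at 6.983 (others 10.791 to 11.053), for Ndufs4 at 8.376 (others 10.158 to 10.415) and for Ndufv3 at 5.704 (others 7.392 to 7.693), all in complex I. The dim isoform Cox7b2 was highest on array 3 at 3.202 (others 2.980 to 3.003). Array 1 was highest for Cyc1 at 10.770 (others 10.333 to 10.403) and for Atp5mpl at 11.713 (others 11.266 to 11.289), and array 4 for Atp5c1 at 7.162 (others 6.009 to 6.205).

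In the Lgr5-high group, replicate 1 was high for Cox7a1 at 6.981 (others 3.883 to 5.012) and for Ndufs5 at 7.192 (others 5.022 to 5.777). Replicate 2 was low for Ndufa3 at 4.763 (others 10.467 to 11.002) and high for Atp5md at 12.573 (others 12.044 to 12.239). Replicate 3 was high for Cox8b at 5.388 (others 3.761 to 3.922) and for Ndufa5 at 9.713 (others 9.248 to 9.419). Replicate 4 was low for Atp5g2 at 9.984 (others 10.895 to 11.369) and for Sdhc at 7.441 (others 8.624 to 9.250). Such arrays were found for 8.75% of members in Flattop and 10% in Lgr5-high, beside 5.78% and 8.48% of all genes.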

How the results depend on the processing

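Apart from arrays left out, 189 differences of the 18 members with listed Flattop values kept, over all settings, their direction and side of the threshold. In the same settings 9 reversed. With dim genes left out, the trended and robust prior, the title range block or all probe sets kept, the differences equalled those of the main fit. Direction could not change in those settings, so their share of the tally says nothing about it. Other members were not tallied, and among them Ndufb11 was at 1.19 within titles 1 to 8 and -1.97 within titles 38 to 46. Atp5l was at 0.0296 with arrays centred on their medians, 0.0254 with array weights and 0.0110 within titles 38 to 46. With array weights Cox6a1 was at 0.0133 and Uqcrb at 0.0377. Within titles 1 to 8 Uqcrb was at 0.23 and Atp5g2 at 0.0798, and within titles 38 to 46 Ndufa3 was at -0.25 and Uqcrc2 at -0.0290. The cause was not tested.

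The genes called over the whole array numbered 203, against 57 with a replicate block, 77 within titles 1 to 8, 85 within titles 38 to 46 and 311 at an adjusted p of 0.1. In the replicate block fit, Lgr5-high arrays without a Flattop array of the same number did not enter the difference. That fit and those within a title range thus rest on fewer arrays. Deviations of same-numbered arrays from their group means correlated at 0.30, -0.21, -0.01 and 0.03. Differently numbered arrays were not compared in this way, so these correlations cannot decide whether the numbers pair the arrays. With the block 0 members were called.

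Leaving out 1 array at a time gave 123 to 215 genes called, lowest without Flattop array 2 (123) and Lgr5-high replicate 4 (132), and 0 to 1 members called. Median differences ranged from -0.15 to 0.09 for all members, -0.20 to 0.07 for complex I, 0.02 to 0.30 for II, -0.12 to 0.18 for III, -0.14 to 0.05 for IV and -0.08 to 0.10 for V. Differences crossed 0 for Ndufa1 (-1.05 to 0.31), Ndufa3 (-0.19 to 1.06), Ndufa4 (-0.0058 to 0.24), Sdhd (-0.61 to 0.29), Uqcrb (-0.28 to 0.21), Uqcrh (-0.63 to 0.0560), Cox6a1 (-0.19 to 0.0778), Atp5g2 (-0.53 to 0.11) and Atp5l (-0.0923 to 0.0583), and ran from 2.70 to 4.47 for Cox7a1.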

Other observations

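Some members spread widely within both groups, so their differences bound little. Ndufb11, a complex I accessory subunit, had an SD of 1.86 in Flattop and 1.41 in Lgr5-high, with a difference of -0.39 and a 95% interval of -2.37 to 1.59. Cox6b2 had SDs of 1.11 and 1.14, and Ndufa11 had SDs of 1.19 and 0.81.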
